A study of Mus musculus with 8 samples.

Results

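Heme is built in 8 enzymatic steps that begin and end in mitochondria, and it is degraded by heme oxygenase. Aminolevulinate synthase, the entry enzyme, exists in an erythroid form (Alas2), which supplies the heme of hemoglobin, and a housekeeping form (Alas1), which in hepatocytes supplies cytochromes P450 and other hemoproteins and is repressed by heme itself. The fetal liver is a site of red cell formation, which moves to the bone marrow around birth. The 9 genes described here are Alas1, Alas2, the 6 later synthesis genes Alad, Uros, Urod, Cpox, Ppox and Fech, and Hmox1, the inducible heme oxygenase. They were chosen by name, and all 9 were found among the 22059 genes listed for each sample.

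RNA-seq was performed on poly(A)-selected RNA of whole liver from wild-type FVB/NJ mice (FVB in the labels) with no treatment, at embryonic day 18 (E18), postnatal days 14 (P14) and 28 (P28) and in adults aged 3 months, with 2 samples per stage. The study calls them biological duplicates, and the labels give neither pooling, sex, litter nor time of day. Because whole liver holds hepatocytes, blood-forming cells, macrophages and other cells in proportions that shift with age, fewer cells of a type and less RNA per cell cannot be told apart. Levels are given as RPKM, the deposited counts divided by transcript length and by the mapped reads of the sample, and changes between stages as log2 fold changes from an edgeR model fitted to the read counts of all 8 samples. A gene is said to rise or fall where its Benjamini-Hochberg adjusted p over 17081 tested genes was below 0.1.

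Some sequences that bear on the contrast between Alas2 and Alas1 can be read directly. The 5′ leader of the Alas2 transcript (GENCODE M21, GRCm38) holds an iron-responsive element, a hairpin that iron regulatory proteins bind to restrain translation. In the longer transcript the leader has 126 bases and the hairpin loop starts at base 96 from the transcript start. The 6-base loop is in capitals.
Alas2 hairpin: gttcgtcctCAGTGCagggcaac
A search of leaders for this shape (a bulged C, a stem of 5 pairs with G–U pairs allowed, and the loop CAGTGN) found it in 31 of 20899 genes (0.148%), and Alas2 was the only one of the 9 among them.

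RefSeq start-site windows (GRCm38.p6, 250 bases before to 50 after the start) were used for 7 of the 9 genes (10 windows, since Alad, Uros and Alas1 have 2 each), without Fech and Hmox1. They were searched on both strands for letters of the erythroid GATA factors (AGATAA, in which the first A may be T and the last A may be G), for the CACCC-type letters CCNCNCCC bound by KLF factors, and for the NRF1-type letters GCATGCGC. The sequences below are read on the gene's own strand, are shown because the genes of the pathway differed in these letters, and have the match in capitals.
Alas2, GATA, chrX:150547322-150547345, + strand: ctttgctttTTATCTttagcagag
Cpox, GATA, chr16:58670108-58670131, + strand: ctaaagcgcCTATCTtatcagtcc
Cpox, GATA, chr16:58670113-58670136, + strand: gcgcctatcTTATCAgtccaagca
Cpox, GATA, chr16:58670203-58670226, + strand: ggtgcagtcTTATCTgctctttcc
Uros, GATA, chr7:133702554-133702577, - strand: ccctcagccTTATCAgtgacagag
Alas1, NRF1-type, chr9:106247908-106247931, - strand: cccaaggcGCATGCGCggcggtca
The Alas2 match starts 86 bases before the start site, and the first pair of Cpox matches overlap by 1 base. Uros has 2 GATA matches in the window of its downstream start and 0 in that of its upstream start. The GATA letters were in none of the windows of Alas1, Alad, Urod and Ppox, and occur in 29.8% of all 32851 windows. The Alas1 site reads on both strands as overlapping matches, lies in both Alas1 windows and in no other member's, and its letters occur in 2.71% of windows. CACCC-type letters were present for each of the 7 genes, with 1 to 4 matches in each window except that of the downstream Uros start, which had 0, and occur in 49.5% of windows. These are matches of letters, not measured binding.

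Reads counted on genes numbered 68154675 to 106055723 per sample. Albumin took 4.41 to 14.13% of them, and the TMM factors, which scale the samples in edgeR, were 1.598 and 1.539 at E18 against 0.847 to 0.888 later. Scaling by library size alone shifted the log2 changes from E18 by a median of -0.87 (P14) or -0.85 (adult) and cut the share of higher calls from 49.2 to 21.8% and from 47.4 to 25.4%. No member changed direction or call with it in these spans. Folds below are those of the TMM-scaled model unless stated, and from E18 they differ from ratios of the RPKM. The liver label was checked against the markers: the 10 hepatocyte markers summed to 46840 to 149400 RPKM in every sample, and 20 of 22 erythroid markers were listed, summing to 17010 to 21330 RPKM (E18), 143 to 160 (P14), 67.2 to 72.2 (P28) and 46.3 to 51.0 (adult). Hba-a1 and Hba-a2 had nearly the same reads (176482 and 176474 in E18 replicate 1), as did Hbb-b1 and Hbb-b2 (272039 and 272035). These sums and the counts of 20 markers therefore hold each globin pair under both names.

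Between E18 and P14 the pathway genes parted in direction: Alas1 rose and the other 8 fell. Calls higher made up 38.2% and calls lower 39.3% of all tested genes in that interval. The median log2 change was -2.18 over the 9 genes and -0.03 over all tested genes. By a narrower rule, which adds a change of over 3-fold, 7 of the 8 falls counted, where 15.4% of tested genes fell and 13.8% rose that far. Alad, which fell 2.67-fold, was the exception under TMM scaling. With library size alone it also fell over 3-fold (log2 change -2.28, SE 0.14).

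**Figure D1:**
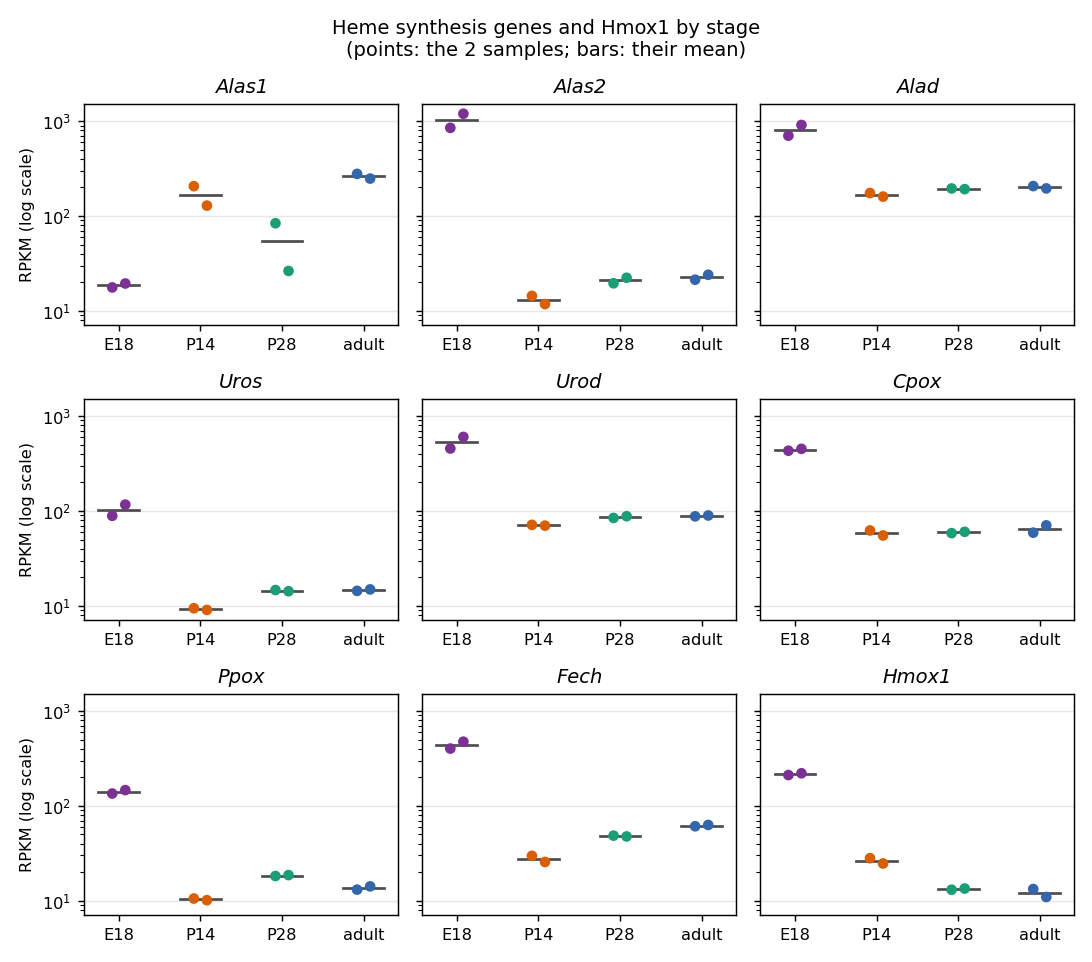
RPKM (log scale) of each of the 9 genes in the 8 samples, by stage. Points are single samples and bars their mean. Alas1 is lowest at E18 and highest in adult, and the other 8 genes are highest at E18.

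Alas2 was the most abundant of the 9 at E18. Its RPKM was 851 and 1199 (E18), 14.4 and 11.8 (P14), 19.5 and 22.3 (P28) and 21.3 and 24.02 (adult). Both E18 samples lay far above the rest, the P14 samples were the lowest, and the P28 and adult samples overlapped. The read counts behind these levels were 157577 and 200610 at E18 and never under 2589 afterwards. Alas2 fell from E18 to P14 by 5.44 on the log2 scale (SE 0.21, adjusted p = 5e-08), a 43.3-fold drop. It then rose 1.64-fold from P14 to P28 (log2 change 0.71, SE 0.18, adjusted p = 0.01). From P28 to adult the log2 change was 0.10 (SE 0.18, adjusted p = 0.77). Over the whole span the drop was 24.7-fold (log2 change -4.63, SE 0.20, adjusted p = 5e-08). With library size alone the log2 changes from E18 were -6.3 to P14 (SE 0.22) and -5.47 to adult (SE 0.21).

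Alas1 ran the other way. Its RPKM was 17.7 and 19.4 (E18), 206 and 129 (P14), 83.9 and 26.3 (P28) and 278 and 248 (adult). The E18 samples were the lowest and the adult samples the highest, with no overlap between stages, although the lower P28 sample came close to E18. Alas1 rose 16.3-fold from E18 to P14 (log2 change 4.03, SE 0.50, adjusted p = 7.3e-05), fell 2.95-fold from P14 to P28 (log2 change -1.56, SE 0.45, adjusted p = 0.02) and rose 4.69-fold from P28 to adult (log2 change 2.23, SE 0.46, adjusted p = 0.014). From E18 to adult it rose 26-fold (log2 change 4.70, SE 0.51, adjusted p = 2.4e-05). With library size alone the log2 changes from E18 were 3.17 to P14 (SE 0.47) and 3.85 to adult (SE 0.49). P14 and adult did not differ beyond the spread (log2 change 0.67, SE 0.44, adjusted p = 0.23).

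The P28 value of Alas1 rests on duplicates that differed 3.19-fold, whereas the duplicates of the other 8 genes at P28 differed at most 1.14-fold. Without P28 replicate 1 the log2 change from P14 to P28 was -2.65 and from P28 to adult 3.32, and without P28 replicate 2 these were -0.95 and 1.62. Without P14 replicate 1 the fall from P14 to P28 was not called (log2 change -1.19, adjusted p = 0.10). In the same P28 libraries Nr1d1, a clock repressor with a strong daily rhythm in liver, was at 30.6 and 53.6 RPKM, higher where Alas1 was lower. Its part in the Alas1 difference was not tested.

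The ratio of the synthases within a sample does not depend on scaling between samples. Alas2 RPKM divided by Alas1 RPKM was 48.2 and 61.7 (E18), 0.0698 and 0.0916 (P14), 0.233 and 0.848 (P28) and 0.0766 and 0.0967 (adult). Alas2 thus exceeded Alas1 in both E18 samples and in no later sample. The mean log2 ratio was 5.77 ± 0.25 (SD, n = 2) at E18, -3.64 ± 0.28 (P14), -1.17 ± 1.32 (P28) and -3.54 ± 0.24 (adult). An exact permutation test over the 105 ways to place 8 samples in 4 pairs gave p = 0.019 for a difference between stages (one-sided on F, smallest possible p 0.0095). The Benjamini-Hochberg value was 0.025 in the same exact test over the 8 ratios of Alas2 to another member. Without P14 replicate 1 or adult replicate 2 the exact p was 0.057. Alas1 made up 2.03 and 1.60% of the summed synthase RPKM at E18, 93.5 and 91.6% (P14), 81.1 and 54.1% (P28) and 92.9 and 91.2% (adult).

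**Figure D2:**
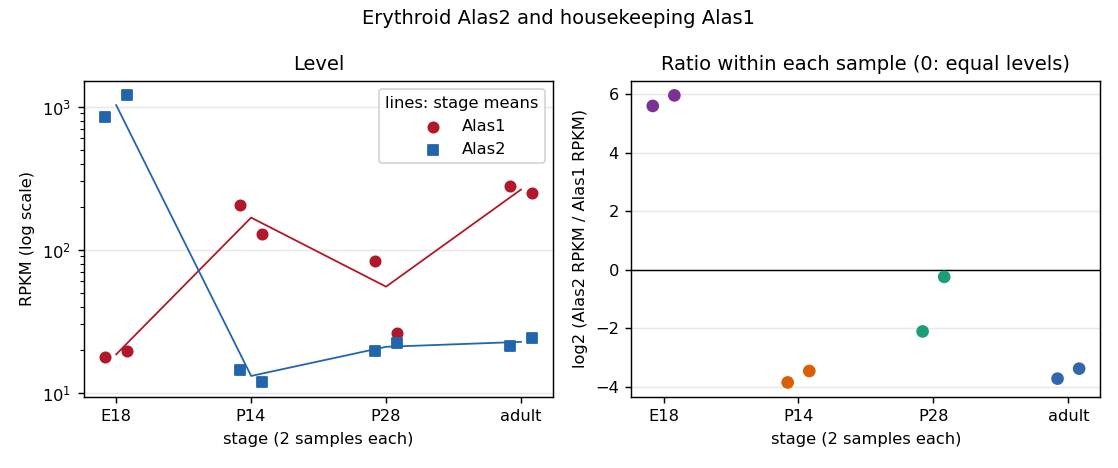
Left, RPKM (log scale) of Alas1 (circles) and Alas2 (squares) by stage, with lines through the stage means. Right, log2 of the Alas2 to Alas1 RPKM ratio in each sample, with 0 marking equal levels. The ratio is 5.59 and 5.95 at E18 and below 0 in the 6 later samples.

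The cytosolic enzymes fell as well between E18 and P14. Alad, which joins aminolevulinate molecules into porphobilinogen, was at 704 and 912 RPKM at E18, 175 and 160 (P14), 195 and 192 (P28) and 207 and 196 (adult). Its E18 samples stood above all others, and the adult samples lay just above those of P28. It fell by 1.41 on the log2 scale from E18 to P14 (SE 0.14, adjusted p = 1.8e-05), and its later steps of 0.25 (adjusted p = 0.18) and 0.04 (adjusted p = 0.90) were not called. The ratio of Alas2 to Alad RPKM fell from log2 values of 0.27 and 0.39 at E18 to -3.28 and -3.03 in adult (exact permutation p = 0.019 over the 4 stages, adjusted 0.025).

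Uros, which closes the porphyrin ring, was the least abundant of these enzymes after Alas1 at E18. Its RPKM was 88.9 and 117 (E18), 9.43 and 9.05 (P14), 14.7 and 14.2 (P28) and 14.4 and 14.9 (adult). It fell 6.15-fold from E18 to P14 (log2 change -2.62, SE 0.14, adjusted p = 2.5e-07) and rose 1.6-fold from P14 to P28 (log2 change 0.68, SE 0.13, adjusted p = 0.0029). The P28 and adult samples overlapped. The log2 ratio of Alas2 to Uros RPKM was 3.26 and 3.36 at E18 and 0.38 to 0.69 in the later samples, which overlapped across stages. Its test over all stages was the weakest of the 8 (exact permutation p = 0.095, adjusted 0.095). That p depends on the overlap among the later stages as well, so it does not measure the fall from E18 alone.

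Urod, the decarboxylase that follows, was at 456 and 604 RPKM at E18, 71.4 and 70.0 (P14), 84.4 and 88.0 (P28) and 87.7 and 89.6 (adult). It fell 4.14-fold from E18 to P14 (log2 change -2.05, SE 0.14, adjusted p = 1.4e-06). The rise from P14 to P28 was small (log2 change 0.32, SE 0.13, adjusted p = 0.081) and was not called without any one of the P14, P28 or adult samples.

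The mitochondrial end of the pathway showed the same drop and then differed gene by gene. Cpox, an oxidative decarboxylase, was at 432 and 452 RPKM at E18 and between 55.2 and 70.5 in all later samples, which overlapped across stages. It fell 4.16-fold from E18 to P14 (log2 change -2.06, SE 0.12, adjusted p = 4.4e-07), with later log2 changes of 0.05 (adjusted p = 0.74) and 0.11 (adjusted p = 0.59).

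Ppox, which oxidizes protoporphyrinogen, was at 135 and 147 RPKM at E18, 10.6 and 10.1 (P14), 18.2 and 18.6 (P28) and 13.1 and 14.2 (adult). No stages overlapped. It fell 7.52-fold from E18 to P14 (log2 change -2.91, SE 0.09, adjusted p = 1.7e-08), rose 1.83-fold from P14 to P28 (log2 change 0.87, SE 0.09, adjusted p = 8.6e-05) and fell 1.37-fold from P28 to adult (log2 change -0.45, SE 0.09, adjusted p = 0.0097). It was the only member that fell in the last interval.

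Fech, ferrochelatase, which inserts iron into protoporphyrin, was at 402 and 475 RPKM at E18, 29.8 and 25.6 (P14), 48.6 and 47.6 (P28) and 61.0 and 62.9 (adult). Its stages did not overlap either. After a fall of 8.76-fold to P14 (log2 change -3.13, SE 0.13, adjusted p = 7.2e-08), it rose 1.78-fold to P28 (log2 change 0.83, SE 0.12, adjusted p = 0.00069). The step to adult was 1.27-fold (log2 change 0.35, SE 0.12, adjusted p = 0.094) and was not called with the replicate block (adjusted p = 0.14) or without any one of the P14, P28 or adult samples.

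Apart from Alas1, Hmox1 was the only member that fell from P14 to P28. Its RPKM was 211 and 221 (E18), 28.1 and 24.7 (P14), 13.1 and 13.5 (P28) and 13.3 and 10.9 (adult). Each stage lay below the one before, except that P28 and adult overlapped. Hmox1 fell 4.52-fold from E18 to P14 (log2 change -2.18, SE 0.12, adjusted p = 3.6e-07) and 1.94-fold from P14 to P28 (log2 change -0.96, SE 0.12, adjusted p = 0.00027), with a log2 change of -0.15 to adult (adjusted p = 0.46). From E18 to adult it fell 9.73-fold, a drop second to that of Alas2 among the 9 (log2 change -4.13 with library size alone, SE 0.12).

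**Figure D3:**
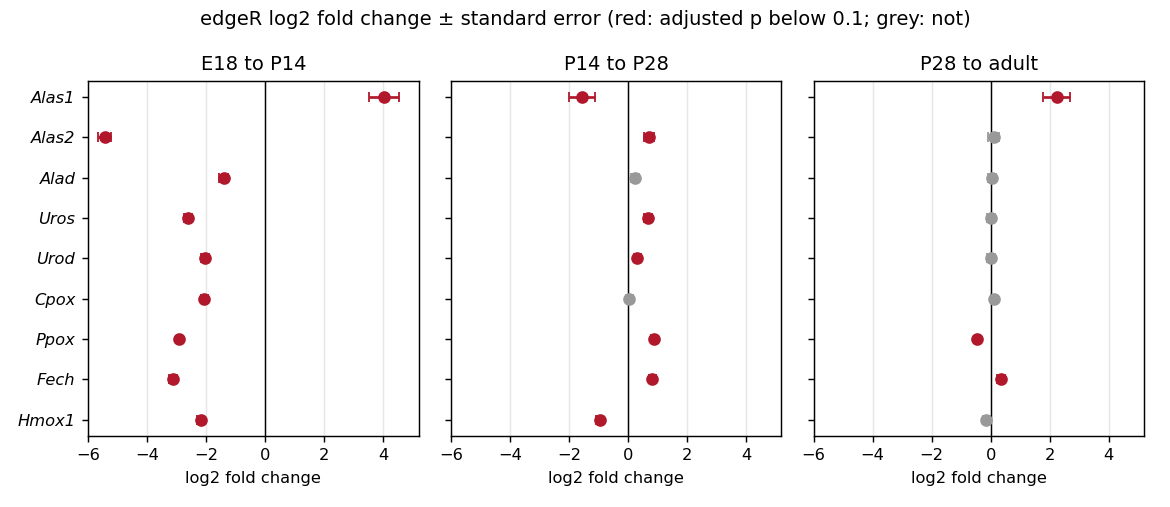
edgeR log2 fold change of each of the 9 genes in the 3 consecutive intervals, with bars of 1 standard error. Red points passed the adjusted p of 0.1 and grey points did not. In the first interval Alas1 lies at 4.03 and the other genes between -5.44 and -1.41.

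Intervals that share a stage share its samples, so their values are set side by side and not compared as separate evidence. From P14 to P28, 5 of the 9 rose (Alas2, Uros, Urod, Ppox and Fech) and 2 fell (Alas1 and Hmox1), where 25.2% of tested genes rose and 28.6% fell. From P28 to adult, 2 rose (Alas1 and Fech) and Ppox alone fell, where 7.94% rose and 13.2% fell. From E18 to adult, Alas1 rose and 8 fell, where 39.5% rose and 43.8% fell. Past 3-fold as well, Alas1 rose and 7 fell in that span (all but Alad), where 16.8% rose and 23.8% fell. With library size alone Alad passed 3-fold there too (log2 change -1.98, SE 0.13). Every synthesis gene other than Alas1 had its highest mean RPKM at E18 and its lowest at P14, although the later samples of Cpox overlapped.

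The composition of the synthesis pathway changed with these shifts. The 8 synthesis members summed to 3086 and 3925 RPKM at E18 and to 470 to 742 RPKM in later samples. Alas2 was 27.6 and 30.5% of the sum at E18 and 2.49 to 4.76% later, while Alas1 was 0.573 and 0.495% (E18), 35.7 and 27.3% (P14), 16.0 and 5.61% (P28) and 37.5 and 34.5% (adult). Alad held 22.8 and 23.2% at E18 and 27.2 to 40.9% later. In RPKM, Alas1 was the lowest of the 9 genes in both E18 samples and the highest in both adult samples, and Alad was the highest in both P28 samples. At P14 Alas1 was the highest in replicate 1 and Alad in replicate 2.

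Most erythroid markers fell further than any member. All 20 measured markers fell from E18 to P14, with a median log2 change of -8.82, where 39.3% of tested genes fell. From P14 to P28, 19 of 20 fell, with a median of -1.5, where 28.6% of tested genes fell. Alas2 fell less than 18 of the 20 in the former interval, the others being the transferrin receptor Tfrc (log2 change -1.75) and the tetraspanin Tspan33 (-3.53). In the latter interval, in which Alas2 rose, the change of each of the 20 markers was below it, by 0.73 to 5.89 on the log2 scale. Gata1, the erythroid transcription factor, had 21622 and 24692 reads at E18 and 2 to 4 reads at P28 and in adult, when Alas2 still had 3116 to 3966. The beta-globin gene Hbb-b1, whose reads cannot be separated from those of the near-identical Hbb-b2, went from 4644 and 5921 RPKM at E18 to 21.6 and 17.8 at P28 and 11.5 and 13.9 in adult. In adult, 9 of the 20 markers had at most 10 reads in both samples. Kel and Epb4.2 were at 0 reads in 1 adult sample and Rhag in 1 P28 sample. Among erythroid regulators, Klf1 kept 319 to 506 reads per sample after birth. Which cells carried the Alas2 reads after E18 was not tested.

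**Figure D4:**
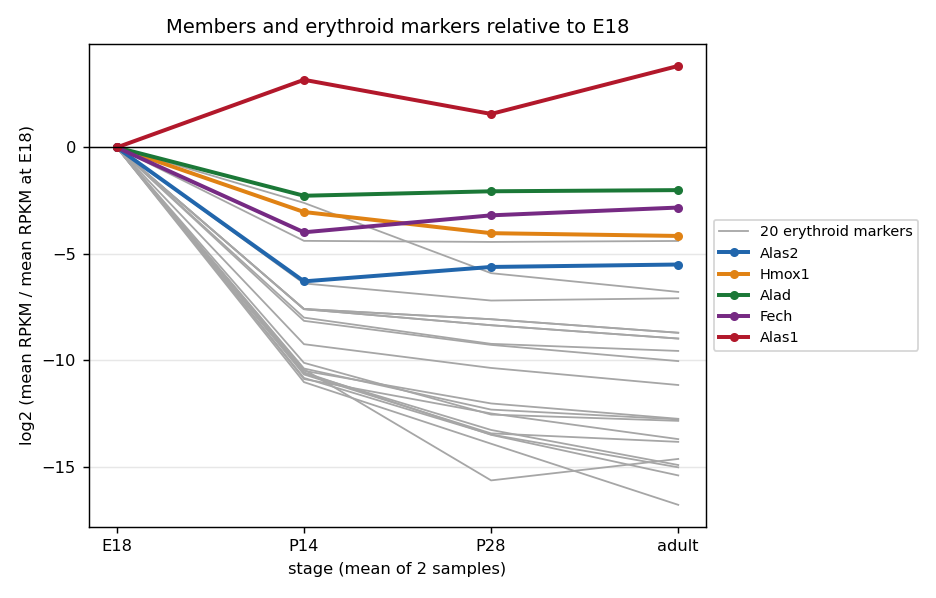
Mean RPKM (n = 2) relative to the E18 mean, on a log2 scale, for 5 of the 9 genes (coloured) and 20 erythroid markers (grey). Most grey lines go on falling after P14, whereas Alas2 and Fech turn upward and Alas1 stays above 0.

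Overlapping genes could add reads to some of these levels, since the counting is not stated to use strand. In the GRCm38 annotation, Alas2 shares 12.9% of its exon bases with Apex2 on the opposite strand, Ppox 17.5% with B4galt3, Alas1 7.53% with 4930500F10Rik and Cpox 3.06% with Gpr15, while Alad, Uros, Urod, Fech and Hmox1 share none. Apex2 was at 9.12 and 9.98 RPKM at E18 and 2.87 to 4.06 later. B4galt3 was at 28.9 and 32.3 RPKM at E18 and 5.91 to 7.85 later. Gpr15 was at 0 to 0.108 RPKM, against 55.2 or more for Cpox. Apex2, B4galt3 and Gpr15 were each below the member they overlap in every sample, and 4930500F10Rik was not listed. Reads in the shared bases cannot be told apart.

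Partner genes of synthesis did not move as a block. Of 17 (enzymes, carriers of precursors and iron, iron–sulfur assembly), 6 rose and 9 fell from E18 to P14. The shares of all tested genes were 38.2 and 39.3%, and the median log2 change of the 17 was -0.30. With library size alone 1 rose and 16 fell, where 3177 of all 17081 tested genes rose and 11402 fell. Slc25a28, Slc25a39, Nfs1 and Fdx1l were among the partners that turned from higher to lower. Under TMM scaling 4 fell over 3-fold, among them Slc25a37, Abcb10 and Slc25a38. Slc25a37 (mitoferrin-1), the iron carrier of erythroid mitochondria, was at 820 and 1012 RPKM at E18 and 7.34 to 10.5 later, with a log2 change of -6.04 from E18 to P14 (SE 0.18, adjusted p = 1.3e-08). Slc25a38, the erythroid glycine carrier, had a log2 change of -1.62 (SE 0.14, adjusted p = 5.5e-06). Abcb10, a mitochondrial transporter that binds mitoferrin-1, was at 153 and 189 RPKM at E18, 6.61 and 6.23 (P14), 13.3 and 14.9 (P28) and 17.4 and 19.96 (adult), and rose from P14 to P28 (log2 change 1.17, SE 0.13, adjusted p = 0.00014). Clpx, a mitochondrial unfoldase that acts on aminolevulinate synthase, rose from 23.1 and 25.2 RPKM at E18 to 69.3 and 69.0 at P14 (log2 change 2.37, SE 0.18, adjusted p = 2.7e-06). Under TMM scaling it was the only partner that rose over 3-fold. With library size alone its rise was under 3-fold (log2 change 1.51, SE 0.18, adjusted p = 3.9e-05).

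Downstream of Hmox1, the other breakdown genes split, with 2 of 4 higher and 2 lower from E18 to P14. Among all tested genes 38.2% rose and 39.3% fell. Ugt1a1, which conjugates bilirubin, rose from 23.9 and 26.5 RPKM at E18 to 148 and 165 at P14 (log2 change 3.49, SE 0.15, adjusted p = 8.9e-08) and on to 283 and 281 at P28. Blvrb, a biliverdin reductase abundant in red cells, fell from 590 and 790 RPKM to 76.7 and 79.6 (log2 change -2.29, SE 0.16, adjusted p = 1.8e-06). Blvra, the other reductase, fell by 0.32 on the log2 scale (SE 0.11, adjusted p = 0.029). Hmox2, the constitutive oxygenase, was at 31.7 to 37.1 RPKM in every sample; its log2 change of 1.0 under TMM scaling became 0.13 (adjusted p = 0.19) with library size alone.

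Genes that carry or scavenge heme mostly rose, 6 of 8 higher and 2 lower from E18 to P14. In that interval 38.2% of all tested genes rose and 39.3% fell. The plasma heme scavenger Hpx went from 365 and 402 RPKM at E18 to 4673 and 4614 at P14 (log2 change 4.46, SE 0.15, adjusted p = 2.1e-08). Haptoglobin (Hp), which binds free hemoglobin, went from 47.1 and 68.8 to 3858 and 3766 RPKM (log2 change 6.89, SE 0.23, adjusted p = 2.2e-08), and both fell again from P14 to P28. The porphyrin exporter Abcg2 fell from E18 to P14 (log2 change -1.49, SE 0.13, adjusted p = 6e-06), as did the heme transporter Slc48a1 (-1.17, SE 0.12, adjusted p = 2.2e-05). The direction of Mfsd7c (Flvcr2) turned with library size alone.

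A list of 20 hemoproteins and associated oxidative enzymes mostly rose in the interval in which Alas1 first rose. Of the 20, 18 rose and 2 fell from E18 to P14, where 38.2% of tested genes rose and 39.3% fell. Their median log2 change was 2.75. With library size alone 17 rose and 2 fell, where 3177 of all 17081 tested genes rose and 11402 fell. The 10 hepatocyte markers all rose in the same interval, with a median log2 change of 2.71, so a rise was not particular to this list. Cyp2e1, a major hepatic cytochrome P450, went from 1.55 and 1.90 RPKM at E18 to 2999 and 2568 at P14, and catalase (Cat) from 158 and 173 to 445 and 395. The 2 that fell, Sqle and Cyp51, belong to cholesterol synthesis. Sqle and Por are flavoproteins without heme, and without them, a choice made after their values were seen, 17 of 18 rose and 1 fell. From P14 to P28, when Alas1 fell, 10 of the 20 rose and 5 fell, where 25.2% of tested genes rose and 28.6% fell.

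Of 15 regulators of Alas1, Alas2 or Hmox1, 7 rose and 6 fell from E18 to P14. Over all tested genes the shares were 38.2 and 39.3%. Nr1i3, the xenobiotic receptor known to induce Alas1, rose from 3.38 and 2.89 RPKM at E18 to 54.9 and 56.6 at P14 (log2 change 5.01, SE 0.16, adjusted p = 1.7e-08). Ppargc1a, a coactivator of Alas1, was at 1.93 and 1.40 RPKM at E18, 3.57 and 2.29 (P14), 1.89 and 1.65 (P28) and 1.30 and 1.13 (adult); it rose to P14 (log2 change 1.68, SE 0.22, adjusted p = 0.00012) and fell to P28 (-0.69, SE 0.22, adjusted p = 0.03). Nr1d1, a repressor, was at 3.58 to 4.58 RPKM up to P14, with a called log2 change of 1.00 from E18 to P14 under TMM scaling (SE 0.22, adjusted p = 0.0029) that was not called with library size alone (0.13, adjusted p = 0.61). It rose by 3.37 on the log2 scale from P14 to P28 (SE 0.23, adjusted p = 1.3e-05). In adult, when Alas1 was highest, Nr1d1 was at 48.9 and 47.3 RPKM. Its log2 change from P28 to adult was 0.18 (SE 0.21, adjusted p = 0.63) and was not called. The part of Nr1d1 in the Alas1 changes was not tested. Nrf1 itself fell from E18 to P14 (log2 change -1.79, SE 0.14, adjusted p = 4e-06).

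Bach1, the heme-sensing repressor of Hmox1, fell with it at first, from 10.4 and 8.83 RPKM at E18 to 1.78 and 1.60 at P14 (log2 change -1.65, SE 0.10, adjusted p = 8.2e-07). It then rose to P28 (log2 change 1.16, SE 0.10, adjusted p = 4.8e-05), the interval in which Hmox1 fell again. From P28 to adult Bach1 rose once more (log2 change 0.69, SE 0.10, adjusted p = 0.003), while Hmox1 was not called. The part of Bach1 in the Hmox1 values was not tested. The activator Nfe2l2 was not called from E18 to P14 (log2 change -0.11, SE 0.11, adjusted p = 0.37; with library size alone it fell by 0.98, adjusted p = 2.6e-05) and rose from P14 to P28 (0.73, SE 0.11, adjusted p = 0.00074). Of the iron regulatory proteins that bind the hairpin shown above, Aco1 rose from E18 to P14 (log2 change 1.31, SE 0.10, adjusted p = 2.5e-06) and Ireb2 was not called (0.12, SE 0.10, adjusted p = 0.29), but fell with library size alone (log2 change -0.75, SE 0.10, adjusted p = 0.00013). Both rose from P14 to P28.

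Macrophages, which degrade red cell heme and express Hmox1, were followed with 13 markers. From E18 to P14, 6 rose and 3 fell, where 38.2% of tested genes rose and 39.3% fell. The summed level of the markers was 368 to 502 RPKM at E18, 322 to 354 (P14), 307 to 360 (P28) and 174 to 181 (adult). With library size alone 3 of the markers rose and 9 fell from E18 to P14, where 3177 of all 17081 tested genes rose and 11402 fell. From P28 to adult 11 of the 13 fell, where 13.2% of tested genes fell, while Hmox1 was not called. From P14 to P28, when Hmox1 fell, 2 of the 13 rose (Clec4f and Cd163), 2 fell (Marco and Emr1) and 9 were not called. The median log2 change of the 13 was 0.05, and 25.2% of tested genes rose and 28.6% fell. The part of macrophages in the Hmox1 values was not tested.

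The genes whose profile was most like that of each member were found by Pearson's r of log2 CPM over the 8 samples of 4 stages among 12029 genes with a mean of at least 1 RPKM; r ignores the size of a change, shared stages alone make it high, and no p is given. For Alas2 the nearest were Ap2a1, Icam4, an erythroid adhesion molecule, and 5730508B09Rik (each r = 0.9985). Icam4 was at 128 and 184 RPKM at E18 and 0.249 to 0.943 later. Fech was nearest to Abcb10 (r = 0.9977), Urod to Dhrs11 (0.999), Ppox to Rps6ka1 (0.9992), Cpox to Gtpbp1 (0.9983), Alad to Dcaf12 (0.9958) and Hmox1 to D030056L22Rik (0.9987). Uros was nearest to Pfkm (r = 0.9979), followed by Eif2ak1, the heme-regulated kinase of erythroid cells (0.9971), which was at 117 and 145 RPKM at E18, 11.7 and 11.6 at P14 and 16.1 to 18.6 later. Alas1 had the lowest best match, Rnf25 (r = 0.9779), after TMM scaling. In RPKM Rnf25 was at 19.6 and 19.7 at E18 and 12.8 to 15.8 later and so was highest where Alas1 was lowest.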

How the data were processed

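Libraries were sequenced as 100 bp pairs. For each gene symbol and sample the authors deposited an unnormalized read count and an RPKM, obtained after alignment by a method cited in the paper. The submitters' processing notes name mm9. The counter and its use of strand are not given in the sources used here. The methods name RNeasy and the labels Trizol for RNA isolation.

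Counts were filtered with filterByExpr, scaled by TMM and fitted with 1 coefficient per stage in edgeR (version 4.0.16, glmQLFit and glmQLFTest) in R 4.3.3, after checks on simulated data. The SE is the log2 change divided by the square root of F. Depth was 68154675 to 106055723 reads on genes, so counting error is small except for genes near 0. Duplicates differed beyond counting noise in every stage. Alternatives were DESeq2 1.42.0, limma 3.58.1 on log2(RPKM + 0.1) or log2(RPKM + 1), other scalings and filters, the replicate block, an adjusted p of 0.05 and leaving out each sample. Members, lists, markers, most-alike genes (3 per member) and tests were chosen with earlier results of these data known. Ratios of Alas2 to members other than Alas1 were added after seeing the Alas2 to Alas1 ratio. Fech sequence is not shown. Splicing was not analysed here. Some genes of the lists are not reported here by name.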

Additional observations from a re-analysis of the deposited data

How the results depend on the processing

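No call of a member from E18 to P14 or from E18 to adult changed under any alternative run. Of 648 alternatives to a single log2 change, 616 kept direction and call, 21 lost the call, 3 gained it and 8 turned direction. The count of members higher from P28 to adult was 1 in place of 2 with no filter on low counts, with median-ratio scaling, with the replicate block and at an adjusted p of 0.05, and 1 to 2 with a sample left out; the gene lost was Fech. Members higher from P14 to P28 numbered 4 to 6 and members lower 1 to 2 with a sample left out. The log2 Alas2 to Alas1 ratio, adult minus E18, was -9.48 to -9.13 with a sample left out. The values that turned direction were uncalled and near 0: Cpox from P14 to P28 (-0.03 without P14 replicate 2, range -0.03 to 0.13 with a sample left out) and, from P28 to adult, Cpox (-0.01 without adult replicate 2, range -0.01 to 0.21), Alad (-0.03 without adult replicate 1, range -0.03 to 0.09) and Uros (0.03 with library size alone, 0.02 with limma at either pseudocount, range -0.04 to 0.03 with a sample left out, turning without P28 replicate 1 or adult replicate 1). The cause was not tested. With library size alone 3177 genes were higher and 11402 lower from E18 to P14 (6517 and 6719 with TMM), and 3770 and 11086 from E18 to adult (6753 and 7487), with like counts in limma on RPKM (3231 and 11408, 3747 and 11225 at a pseudocount of 0.1, 3153 and 11340, 3712 and 11162 at 1). At an adjusted p of 0.05, 786 in place of 1357 genes were higher from P28 to adult, and with any 1 of the P28 or adult samples left out 515 to 618. Genes lower in that interval numbered 1152, 1366 and 1294 in place of 2259 without P28 replicate 1, adult replicate 1 and adult replicate 2. Replicate numbers did not pair the samples: replicate differences of different stages correlated at -0.382 to 0.141 over 9830 genes, and the block changed 1 of 54 member calls. With 2 samples per stage, 2 stages alone cannot give an exact permutation p under 0.33.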
